A study of Mus musculus with 6 samples.

Results

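The mitochondrial ribosomal protein genes were taken as the symbols of the count table that begin with Mrpl or Mrps followed by a digit, which gave 77 of the 24411 genes listed: 48 genes named for the large subunit and 29 named for the small subunit. All 77 were matched by symbol to protein-coding genes of GENCODE vM21 (mouse genome GRCm38, the same assembly as mm10), and all 77 passed the expression filter. The lowest count of any of these genes in any library was 140, and the 77 genes together held from 0.381% to 0.409% of the counts of a library. Mrps30 and Mrps18a carry small subunit names although their proteins sit in the large subunit, and Mrps36 is now known as a component of the alpha-ketoglutarate dehydrogenase complex, so subunits are given by symbol below, and fold changes, levels, summed ratios and shared start regions also with these genes placed by structure.

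Mitochondria carry their own ribosome, which translates the few proteins encoded in mitochondrial DNA, all of them core subunits of the oxidative phosphorylation (OXPHOS) machinery. Its ribosomal RNAs come from the mitochondrial genome, whereas all of its proteins are encoded in the nucleus, made in the cytosol and imported. The small subunit reads the messenger RNA, and the large subunit joins the amino acids and is held at the inner membrane, where the new proteins are inserted. The soleus (Sol) is a hindlimb muscle rich in slow, oxidative fibers that hold many mitochondria.

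Lysine-specific demethylase-1 (LSD1, encoded by Kdm1a) is a chromatin enzyme that removes methyl groups from histone H3, and the study asked which genes it controls in Sol under voluntary wheel running (VWR). The series holds 3 WT and 3 LSD1-mKO mice of the C57BL/6 strain, with 1 Sol library per mouse, all trained by VWR; no sedentary mouse was analysed here. LSD1-mKO mice were Lsd1 flox/flox and carried ACTA1-CreERT2, in which the human ACTA1 promoter drives the recombinase in differentiating and differentiated muscle cells, and WT mice were Lsd1-floxed without CreERT2. Mice aged 8 weeks entered a cage with a wheel for 38 days. Once 3 days of familiarization had passed they were given 75 mg/kg tamoxifen on 5 consecutive days, and they were kept off the wheel and without food for 6 h before tissue was taken. Other cells of the muscle keep LSD1, and the WT mice lack the recombinase, so loss of LSD1 and presence of CreERT2 cannot be told apart.

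Library totals ran from 8940206 to 10989846 estimated counts in WT and from 10984664 to 13798059 in LSD1-mKO. Kdm1a measured 40.5, 38.2 and 33.6 TMM-normalized counts per 1000000 counts (CPM) in the WT mice, given here and below in the order of their replicate numbers, and 14.6, 16.6 and 16.6 CPM in the LSD1-mKO mice, a log2 fold change of -1.23 with a standard error (SE) of 0.11 (adjusted p = 0.016, edgeR quasi-likelihood test with Benjamini-Hochberg adjustment). All 8 slow fiber markers and all 11 fast fiber markers were above 0 in every mouse. The slow markers summed to 51504, 48787 and 52645 transcripts per 1000000 transcripts (TPM) in WT and 56719, 60231 and 49676 TPM in LSD1-mKO. The fast markers summed to more in every mouse, at 89371, 76413 and 85242 TPM in WT and 89545, 71710 and 83018 TPM in LSD1-mKO. The lists differ in number of genes, so these sums do not give fiber shares. The summed level of 6 fibroblast markers was 823, 2250 and 2572 TPM in WT and 1749, 1131 and 1125 TPM in LSD1-mKO, and that of 6 leukocyte markers was 186, 684 and 514 TPM in WT and 349.6, 200 and 293 TPM in LSD1-mKO. For the fibroblast and leukocyte lists WT replicate 1 was the lowest mouse, though close to LSD1-mKO replicate 2 for the leukocyte list, and WT replicates 2 and 3 were above the 3 LSD1-mKO mice. The fibroblast and leukocyte median log2 fold changes were -0.73 and -0.60 with 0 of 6 called in each list, and none of these markers was at 0 in any mouse. The 6 endothelial markers had the same order, at 247, 413 and 329 TPM in WT and 327, 284 and 289 TPM in LSD1-mKO. For the satellite cell markers, WT replicates 2 and 3 were also above the 3 LSD1-mKO mice. This did not hold for the adipocyte, Schwann cell and red blood cell markers. In whole muscle, fewer cells of a type and less RNA per cell cannot be told apart.

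No difference between the genotypes was detected in any of the 77 genes. At an adjusted p under 0.05, edgeR called 0 of 77, beside 0.0156% of the 12828 genes tested, and DESeq2 called 0 of 77, beside 0.327%, and limma voom 0 of 77, beside 0.0234%. At an unadjusted p under 0.05 the count was 0 of 77 in each of the 3 tools, where edgeR passed 6.4% of all genes tested, DESeq2 4.5% and limma voom 6.31%. The fitted log2 fold changes of LSD1-mKO over WT lay between -0.17 and 0.17, that is between 0.89-fold and 1.13-fold, with SEs from 0.08 to 0.14, and 60 of the 77 were within 1 SE of 0. All 77 of the 95% intervals spanned 0. The widest bounds were -0.42 for Mrpl41 and 0.42 for Mrps16, so that a decrease to below 0.75-fold or a rise above 1.34-fold lay outside the interval of every gene. The fitted level was higher in LSD1-mKO for 40 genes and lower for 37, and 45.2% of all genes tested were higher. The median of the log2 fold changes was 0.001 over the 77 genes and -0.02 over all genes tested.

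**Figure D1:**
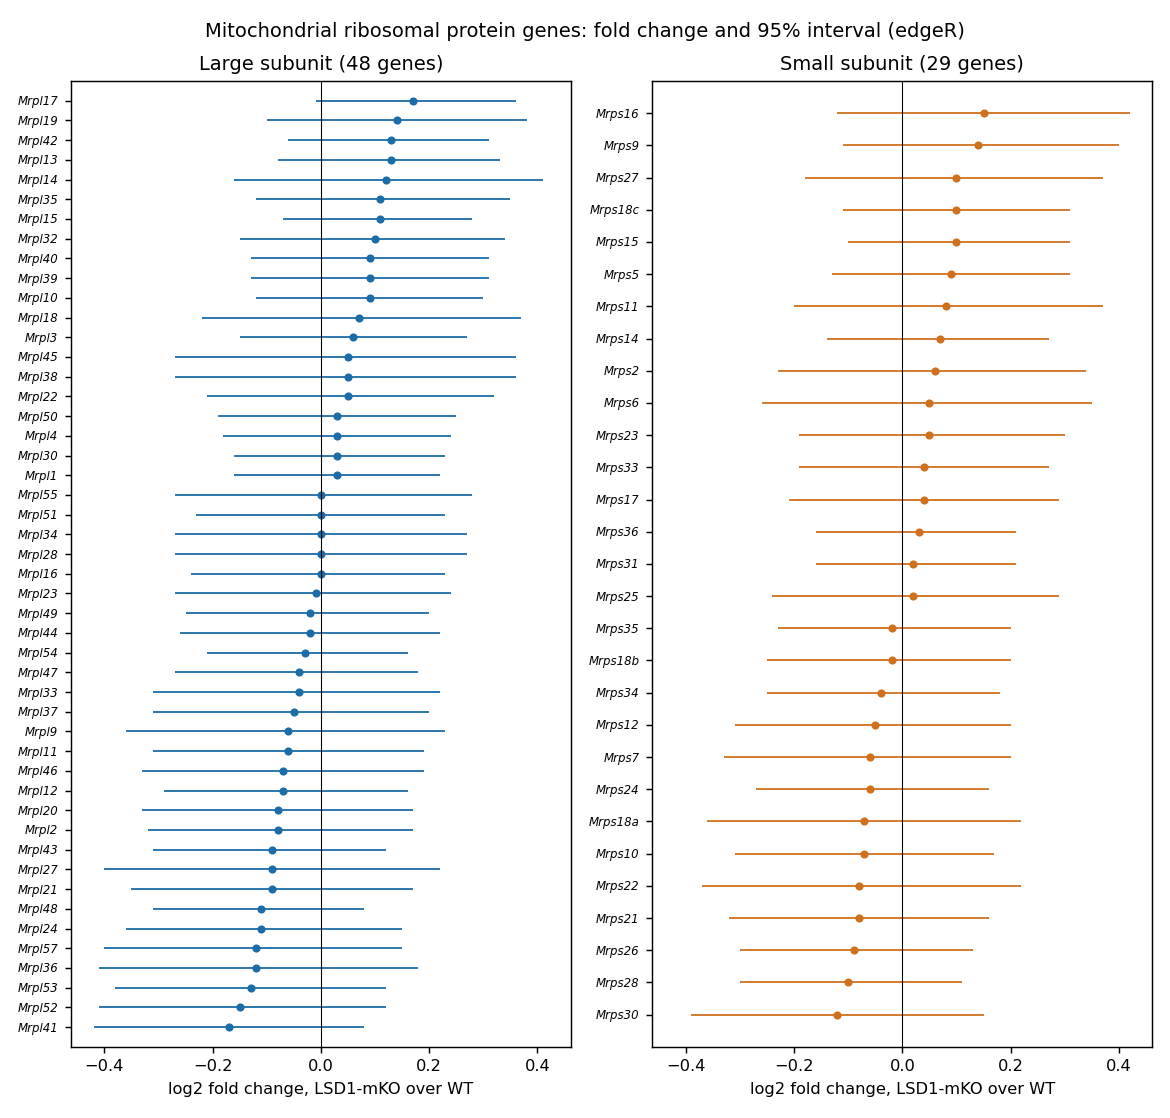
Fitted log2 fold change of LSD1-mKO over WT for each of the 77 genes (points) with its 95% interval (lines), 3 mice per genotype, large subunit names left and small subunit names right. Every line crosses 0, and the points run from -0.17 for Mrpl41 to 0.17 for Mrpl17.

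The largest positive difference was that of Mrpl17 (chromosome 7, 105803206 to 105811099, minus strand), which encodes a protein near the exit of the tunnel through which the new chain leaves the large subunit. It measured 54.1, 52.9 and 48.2 CPM in WT and 57.9, 59.4 and 57.8 CPM in LSD1-mKO. The 3 LSD1-mKO mice were above the 3 WT mice, with a log2 fold change of 0.17 (SE 0.08, unadjusted p = 0.0664, adjusted p = 0.766, edgeR), the lowest p of the 77 genes. At the other end was Mrpl41 (chromosome 2, 24974117 to 24975098, minus strand), a large subunit protein with no bacterial counterpart. It measured 57.02, 45.3 and 45.1 CPM in WT and 43.6, 42.8 and 44.5 CPM in LSD1-mKO. The 3 LSD1-mKO mice were below the 3 WT mice, but WT replicates 2 and 3 were close to them and WT replicate 1 was alone high (log2 fold change -0.17, SE 0.11, adjusted p = 0.782). Without WT replicate 1 it was -0.05.

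The genotypes did not overlap for 5 of the 77 genes, beside 12.7% of all genes tested, and all 5 were large subunit genes. LSD1-mKO was above WT for Mrpl15, Mrpl17 and Mrpl42 (6.62% of all genes tested) and below WT for Mrpl41 and Mrpl48 (6.07%). Mrpl42 (chromosome 10, 95480805 to 95501940, minus strand), a large subunit protein particular to mitochondria, measured 189, 183 and 179 CPM in WT and 209.7, 190.1 and 203 CPM in LSD1-mKO. The closest pair of mice across the genotypes was within 2 CPM, and the log2 fold change was 0.13 (SE 0.08, adjusted p = 0.781). Mrpl48, a protein of the central protuberance that faces the small subunit, measured 69.8, 62.7 and 61.3 CPM in WT and 57.3, 60.9 and 60.8 CPM in LSD1-mKO (log2 fold change -0.11, SE 0.09, adjusted p = 0.827). In CPM the genotypes overlapped for all 29 small subunit genes. In TPM the LSD1-mKO mice were above the WT mice for Mrps14 and Mrps18c. The small subunit gene with the highest fold change was Mrps16, a counterpart of bacterial S16, at 24.7, 23.1 and 19.99 CPM in WT and 22.4, 25.3 and 27.5 CPM in LSD1-mKO. Its mice were interleaved, with 1 LSD1-mKO mouse below 2 WT mice (log2 fold change 0.15, SE 0.12, adjusted p = 0.84). The lowest among small subunit names was Mrps30, a large subunit protein by structure, at -0.12 (SE 0.12, adjusted p = 0.87), with 63.05, 49.3 and 48.2 CPM in WT and 47.5, 52.04 and 47.8 CPM in LSD1-mKO. WT replicate 1 was alone high for Mrps30, and the other 5 mice were interleaved. By structure the lowest of the small subunit was Mrps28 at -0.10.

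Promoter stretches of 4 genes are shown because they hold, or lack, a motif that was more frequent in the promoters of these genes than in others, CCGGAAG, the core bound by ETS factors such as GABP, a known activator of nuclear genes for mitochondria. They are the exon-free bases before the RefSeq start site (GRCm38.p6), written 5′ to 3′ on the gene's strand with the motif, or its reverse complement, in capitals. Mrpl17 and Mrpl41 had the highest and the lowest fold change, and Mrps18a and Mrps27 hold the motif close to the start. The 4 are examples, and the motif was found at both ends of the fold changes. Mrpl52 (-0.15) and Mrpl53 (-0.13) hold it, while the windows of Mrpl42 (0.13) and Mrps9 (0.14) do not. A link between motif and fold change was not tested.
Mrpl17, chr7:105811100-105811337, minus strand: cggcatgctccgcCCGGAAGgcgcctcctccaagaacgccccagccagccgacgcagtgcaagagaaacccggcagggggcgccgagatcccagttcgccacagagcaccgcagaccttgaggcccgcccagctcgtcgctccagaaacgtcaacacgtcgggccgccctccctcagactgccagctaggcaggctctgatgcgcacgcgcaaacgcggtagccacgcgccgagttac
Mrpl41, chr2:24975099-24975348, minus strand: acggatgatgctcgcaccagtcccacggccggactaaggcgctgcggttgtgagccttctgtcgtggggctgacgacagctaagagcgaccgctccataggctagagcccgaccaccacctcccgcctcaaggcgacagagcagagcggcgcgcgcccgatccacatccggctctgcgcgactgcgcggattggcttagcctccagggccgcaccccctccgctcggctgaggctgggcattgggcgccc
Mrps18a, chr17:46110754-46110985, plus strand: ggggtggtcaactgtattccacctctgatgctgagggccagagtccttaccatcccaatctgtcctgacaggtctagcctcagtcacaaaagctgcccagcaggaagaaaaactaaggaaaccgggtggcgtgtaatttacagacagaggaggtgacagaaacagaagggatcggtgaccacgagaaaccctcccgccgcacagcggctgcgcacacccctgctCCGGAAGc
Mrps27, chr13:99344706-99344785, plus strand: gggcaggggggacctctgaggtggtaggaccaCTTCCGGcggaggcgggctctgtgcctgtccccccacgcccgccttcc
Counted back from -1, the last base before the start site, the motif begins at -237 in Mrpl17, at -26 in Mrps18a and, on the opposite strand, at -48 in Mrps27. The window of Mrpl41 holds none of the ETS, YY1, NRF1 and ERR motifs described next.

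Windows from 250 bases before to 50 bases after the start site were given by RefSeq for 68 of the 77 genes, 74 windows in all, and were searched on both strands. CCGGAAG was in 33.8% of them, against 8.86% of all 32851 windows and 16.5% of the windows of genes tested. In 22 of the 25 windows that held it, a copy began no more than 100 bases before the start site or lay after it. That is 88.0%, against 74.4% of all windows with the motif and 77.0% of those of genes tested. AAGATGGC, the core of the YY1 motif, was in 16.2% against 2.75% of all windows and 4.22% of those of genes tested. The palindromic NRF1 motif was in 4.05%, namely in those of Mrpl9, Mrpl32 and Mrpl39, against 0.971% and 2.0%. TCAAGGTCA, bound by estrogen-related receptors (ERR), was in 0 of 74 windows, against 0.423% and 0.264%. This exact motif is so rare that 0 of 74 does not set these windows apart from the others. At least 1 of these 4 motifs was in 48.6% of the windows, against 12.3% of all windows and 21.6% of those of genes tested. By symbol, small subunit windows held CCGGAAG in 40.7% and large subunit windows in 29.8%, and by structure in 41.7% and 30.6%. For general promoter elements, TATAAA was in 6.76% against 13.6% of all windows and 7.4% of those of genes tested, and CCAAT in 40.5% against 37.4% and 37.0%. The median GC content was 58.5% in these windows, 52.7% in all windows and 60.7% in those of genes tested. These are matches of letters and not measured binding.

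Many of the genes share their start region with a neighbor on the other strand. For 33 of the 77 (42.9%) the 5′ end lay within 1000 bases of that of a protein-coding gene running the other way, against 10.8% of 21938 protein-coding genes and 15.6% of the 12347 tested here. This held for 24 large subunit and 9 small subunit genes by symbol (25 and 8 by structure), and for 21 of the 33 the ends were within 200 bases. Mrpl46, of the central protuberance, and Mrps11, of the small subunit, are such a pair. Mrpl46 measured 36.8, 29.3 and 28.2 CPM in WT and 29.9, 29.5 and 30.3 CPM in LSD1-mKO, and Mrps11 measured 16.9, 17.02 and 14.8 CPM and 16.6, 15.6 and 19.4 CPM. The genotypes overlapped for both genes of the pair, with log2 fold changes of -0.07 (SE 0.11) and 0.08 (SE 0.13). Other partners were the respiratory complex I genes Ndufs6 (with Mrpl36) and Ndufb5 (with Mrpl47), and Twnk, the mitochondrial DNA helicase (with Mrpl43). Of the 26 partners outside the family that were tested, 0 were called, beside 0.0156% of all genes tested (edgeR). At an unadjusted p under 0.05 the count was also 0, beside 6.4%. With 26 genes, a count of 0 is near these shares. The fitted level of 14 was higher in LSD1-mKO, beside 45.2% of all genes tested.

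Such neighbors also bear on what the counts measure. The exons of 32 of the 77 genes overlap those of another annotated gene, 27 of them on the opposite strand. The library kit in the study's methods is not named as one that marks strand, and the strand setting of the counting is not stated. Without strand, reads in the shared bases of such a pair cannot be told apart. Over 25% of the exon bases are shared for Mrpl19, Mrpl24, Mrpl43, Mrpl53, Mrps18b, Mrps25 and Mrps34, so the counts of these 7 are uncertain. The 45 genes without such overlap had a median log2 fold change of 0.03 (28 higher, 17 lower), and the 32 with overlap one of -0.04 (12 higher, 20 lower).

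By subunit, the median log2 fold change was -0.002 over the 48 large subunit genes, of which 24 were higher and 24 lower, and 0.025 over the 29 small subunit genes, of which 16 were higher and 13 lower. The sign of the large subunit median depended on the scaling, being 0.006 with DESeq2 size factors and -0.022 with the library size alone. With genes placed by structure the medians were -0.008 (50 genes) and 0.031 (26 genes). The difference of the medians, large minus small, was -0.026, and 0.005 without LSD1-mKO replicate 1. Within the large subunit, the 30 proteins with a bacterial counterpart had a median of 0.002 (17 higher), and the 21 particular to mitochondria, among them Mrps30, Mrps18a and the gene listed as Ict1, now Mrpl58, had one of -0.044 (7 higher). In the small subunit, the 16 with a bacterial counterpart had a median of 0.052 (10 higher) and the 10 particular to mitochondria one of 0.002 (5 higher). No member of these groups passed an unadjusted p of 0.05.

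Functional sites of the large subunit gave fold changes on both sides of 0. In the stalk, which recruits translation factors, Mrpl10 was at 0.09, Mrpl11 at -0.06 and Mrpl12 at -0.07 on the log2 scale. Around the exit tunnel, Mrpl22 (0.05), Mrpl23 (-0.01), Mrpl24 (-0.11), Mrpl47 (-0.04) and Mrpl45 (0.05), the last of which anchors the ribosome at the inner membrane, joined Mrpl17. In the central protuberance, Mrpl18 was at 0.07, Mrpl38 at 0.05, Mrpl40 at 0.09 and Mrpl46 at -0.07. The S18 family, of which Mrps18b and Mrps18c belong to the small subunit, read -0.07 for Mrps18a, -0.02 for Mrps18b and 0.10 for Mrps18c. All of these other than Mrpl17 had an SE of 0.09 or more.

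TPM put the genes on a scale per length. The median gene of the family was at 70.3 TPM, above 85.6% of the genes tested, whose median was 13.3 TPM, and all 77 were above 1 TPM. In the large subunit, Mrpl42 was highest at 639.7 TPM (mean of 6 mice), followed by Mrpl33 (371), Mrpl14 (267) and the stalk gene Mrpl12 (235), and Mrpl47 (17.9), Mrpl17 (16.7) and Mrpl19 (14.1) were lowest. Among small subunit names, Mrps21 was highest at 372 TPM, followed by Mrps36 (207), Mrps23 (176) and Mrps18a (155), and Mrps25 (18.3), Mrps35 (15.5) and Mrps17 (15.4) were lowest; by structure Mrps36 and Mrps18a leave this order and its ends stay as they are. The range from highest to lowest was 45.2-fold over large and 24.2-fold over small subunit names, far wider than any difference between genotypes. The order hardly moved between mice, with rank correlations of 0.987 to 0.994 over the 77 genes between pairs of mice, all of which share the same transcript lengths. It did depend on which transcript gave the length: with the median instead of the longest coding transcript, Mrpl42 was at 414 TPM and still highest, but Mrpl17 moved from 16.7 to 105 TPM and Mrps17 from 15.4 to 58.8 TPM.

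**Figure D2:**
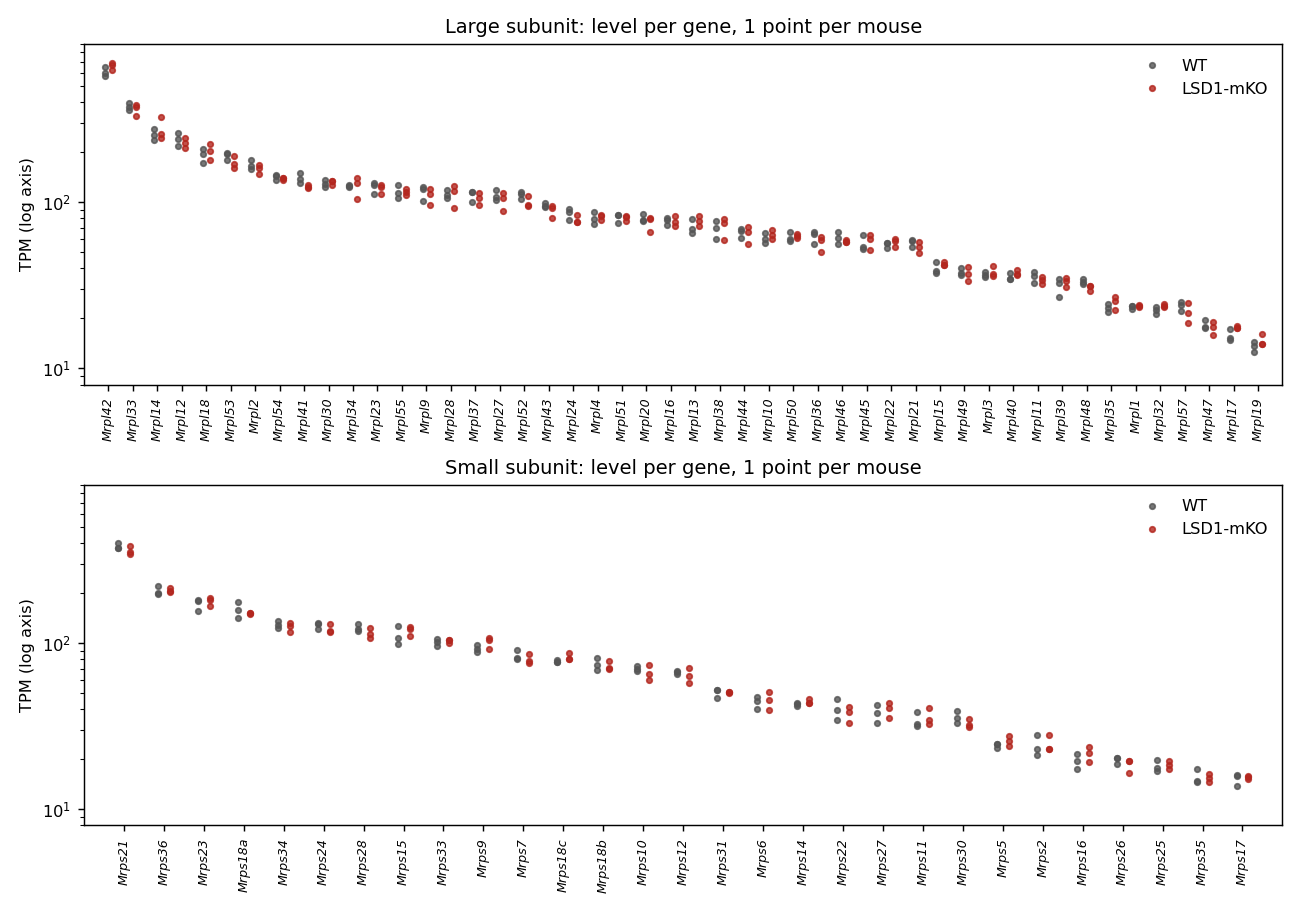
Level of each gene in TPM (log axis) in each of 3 WT (gray) and 3 LSD1-mKO (red) mice, ordered by mean level within the large (top) and small (bottom) subunit names. Levels run from 639.7 TPM for Mrpl42 down to 14.1 TPM for Mrpl19, while the points of one gene lie close together in all 6 mice.

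Summed over a subunit, the genes kept a nearly constant ratio. The large subunit sum was 4955, 5009 and 4713 TPM in WT and 4662, 5011 and 4929 TPM in LSD1-mKO. That of the small subunit was 2430, 2472 and 2296 TPM in WT and 2292, 2454 and 2382 TPM in LSD1-mKO. Both sums were high and low in the same mice, lowest in LSD1-mKO replicate 1 and next lowest in WT replicate 3, and the genotypes overlapped. The ratio of large to small was 2.04 ± 0.0133 for WT (SD, n = 3) and 2.05 ± 0.0187 for LSD1-mKO (SD, n = 3), a difference of 0.009, smaller than the spread between mice. Placed by structure the ratio was 2.55 in both genotypes, and without Mrpl42 and Mrps21, the highest of each subunit, it was 2.12 ± 0.0409 in WT and 2.08 ± 0.0352 in LSD1-mKO.

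**Figure D3:**
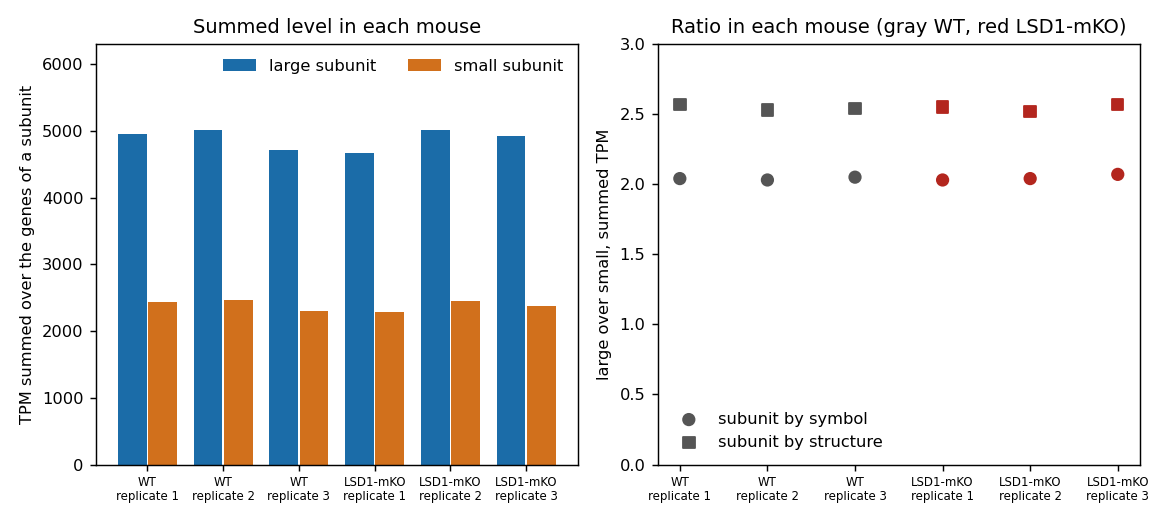
Left, TPM summed over the large (blue) and small (orange) subunit genes in each mouse; right, their ratio with subunits assigned by symbol (circles) or by structure (squares), gray for WT and red for LSD1-mKO. The ratio by symbol stays between 2.03 and 2.07 in the 6 mice.

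Differences between mice of the same genotype exceeded those between genotypes. Relative to each gene's mean over the 6 mice, the median deviation of the 77 genes in log2 CPM was 0.123, -0.052 and -0.094 in WT and -0.056, 0.038 and 0.031 in LSD1-mKO. WT replicate 1 had the highest CPM for 48 of the family's 77 genes, 62.3% beside 23.4% over all genes tested, 32 of the large and 16 of the small subunit. The count moved with the scaling, which shifts all genes of a mouse alike. It was 47 with DESeq2 size factors and 21 (27.3%) in TPM or with the library size alone, where this mouse was the highest for 8.18% and 9.03% of all genes tested. With the same TMM scale it was the highest for 81.5% of 81 OXPHOS subunit genes and 51.9% of 81 cytosolic ribosomal protein genes. Without WT replicate 1, the fitted level was higher in LSD1-mKO for 62 of the 77 genes, beside 47.4% of all genes tested, with medians of 0.061 in the large and 0.085 in the small subunit. Then 0 genes of the family were called (0.0229% of all genes tested), and Mrpl17 (0.21) and Mrps9 (0.25), the counterpart of bacterial S9, had an unadjusted p under 0.05, as did 14.4% of all genes tested. In that fit the 2 remaining WT mice are those with fibroblast, leukocyte, endothelial and satellite cell markers above all LSD1-mKO mice. The part of these markers in the values of this paragraph was not tested. Without WT replicate 3, 24 of the 77 were higher, beside 46.3% of all genes tested. When each mouse was left out in turn, in 6 fits, 29 of the 77 genes kept their sign, 17 higher and 12 lower, and 48 did not. The same count was not made over all genes tested, so it is not read as a trait of the family.

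**Figure D4:**
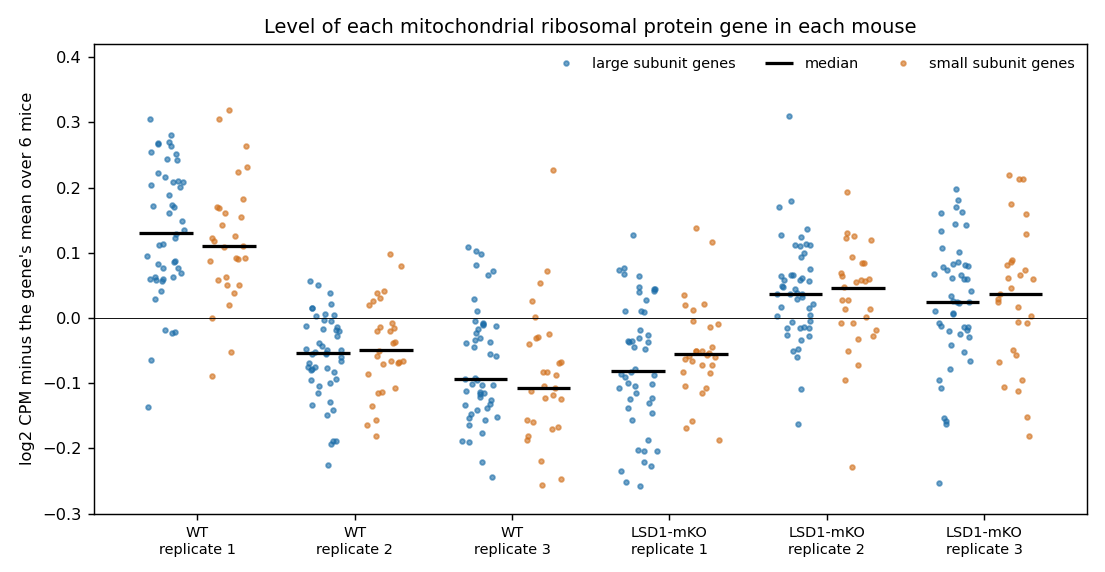
Each point is the log2 CPM of 1 gene in 1 mouse minus that gene's mean over the 6 mice, for large (blue) and small (orange) subunit names, with the median of each set as a black line. Both subunits lie highest in WT replicate 1 and lowest in WT replicate 3, and the LSD1-mKO mice fall between.

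The spread between mice of a genotype was small for these genes. The coefficient of variation was taken within each genotype and averaged over WT and LSD1-mKO. Its median was 8.24% for the 77 genes, against 11.5% for all genes tested, 7.61% for OXPHOS subunits and 4.9% for the cytosolic ribosome. The median gene of the family was also at a higher level than that of all genes tested (70.3 against 13.3 TPM). The part of level in this spread was not tested. Among the 77 genes the fold change was weakly ordered by transcript length (Spearman rho 0.28 across 77 genes, 0.02 across 12347 genes tested) and by GC content (-0.25 and -0.15), values that come from the same 6 libraries and are given as a description. The 39 genes with transcripts of up to 1316 bases had a median of -0.026 (16 higher), and the 38 longer ones 0.033 (24 higher).

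The genes that work with the mitochondrial ribosome were followed in lists of their own, and 0 genes of any list passed an adjusted p of 0.05. The 5 mitochondrial ribosomal proteins of the list of other symbols, Ict1 (-0.04) not among them, had a median log2 fold change of -0.049, with Dap3, a small subunit protein, highest at 0.15 and Gadd45gip1, of the large subunit, lowest at -0.07. Of the 13 mitochondrial translation factors, 10 were higher (median 0.063), among them Tufm, the elongation factor Tu, at 0.08 (SE 0.12), and 0 had an unadjusted p under 0.05. Of the 20 genes for ribosome assembly and rRNA modification, 8 were higher (median -0.006), and Mrm1, a methyltransferase of the large ribosomal RNA, had an unadjusted p of 0.0497 (log2 fold change 0.46, adjusted p = 0.766, edgeR). Of the 20 genes for aminoacyl-tRNA synthesis, 7 were higher (median -0.056), and Rars2, the mitochondrial arginyl-tRNA synthetase, had an unadjusted p of 0.0288 (-0.28, adjusted p = 0.729, edgeR). The 10 genes of mitochondrial transcription and RNA maintenance split into 5 higher and 5 lower, with Tfam, the transcription and packaging factor of mitochondrial DNA, at -0.01 (SE 0.08).

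Among 13 nuclear regulators of mitochondrial genes, 4 had an unadjusted p under 0.05, beside 6.4% of all genes tested (edgeR). This list was chosen with earlier results of these data known. Esrrg, which encodes ERRγ, measured 147, 125 and 116 CPM in WT and 267, 208 and 282 CPM in LSD1-mKO (log2 fold change 0.96, unadjusted p = 0.000101, adjusted p = 0.162, edgeR). The study, which used DESeq2 for these mice, reports a significant rise of Esrrg and also more ERRγ protein in trained LSD1-mKO Sol. The genotypes did not overlap for Esrrg, while the ribosomal protein genes stayed within 0.17 of 0. The others were Esrrb (0.47, adjusted p = 0.534), Perm1, a muscle regulator that acts with ERR factors (0.51, adjusted p = 0.68), and Pprc1, a coactivator related to PGC-1α (-0.38, adjusted p = 0.729). Gabpa, the ETS subunit of GABP, was at 0.08 (SE 0.08) and Nrf1 at 0.21 (SE 0.12). OXPHOS subunits, which include the partners of the proteins made by this ribosome, had a median of 0.026 with 57 of 81 higher, and cytosolic ribosomal proteins one of -0.048 with 19 of 81 higher.

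**Figure D5:**
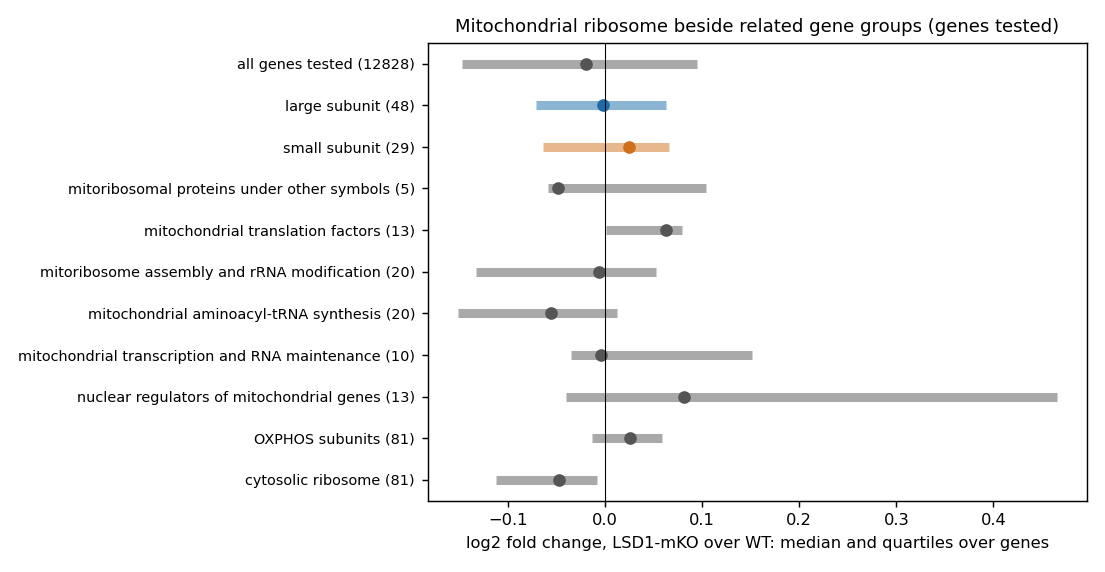
Median (point) and quartiles (bar) of the log2 fold changes of LSD1-mKO over WT in each gene group, with the number of genes tested in parentheses. The large and small subunit medians are -0.002 and 0.025. The lowest median is that of aminoacyl-tRNA synthesis (-0.056) and the highest that of the nuclear regulators (0.081).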

How the data were processed

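Per the labels and the study's methods, polyadenylated Sol RNA was read as 75-base single ends and aligned to mm10 with STAR. The deposited values are estimated counts per gene without normalization, 1 column for each of 6 mice; the counting tool and annotation are not given in the sources used here. The authors' own DESeq2 comparison (fold changes, p-values) was not used. After rounding of the estimated counts, LSD1-mKO was compared with WT in edgeR 4.0.16 in R 4.3.3 (TMM, filterByExpr, quasi-likelihood test), adjusting p by Benjamini-Hochberg over 12828 genes at a threshold of 0.05. Alternatives were DESeq2 1.42.0, limma 3.58.1 (voom), other normalizations and filters, a replicate block and each mouse left out. TPM used the longest protein-coding transcript of GENCODE vM21. The code was tested on simulated data. The rule for single genes took the 4 highest and 4 lowest fold changes and the 4 highest and 3 lowest levels per subunit. It also took genes of functional sites, Mrps36, and genes of other lists with an unadjusted p under 0.05. Mrpl30 and Mrpl42 were taken because the study lists them in a cluster of genes upregulated in LSD1-mKO. Genes named for promoter, neighbor or overlap features were added after their values were seen. So were Mrpl15, Mrps14, Ict1, Dap3, Gadd45gip1, Tufm, Tfam, Gabpa and Nrf1. Members and lists were chosen with earlier results of these data known. Reads amplified by PCR are not independent molecules. No library repeated another (chi-square per gene between pairs at least 9.39).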

Additional observations from a re-analysis of the deposited data

How the results depend on the processing

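Under every alternative 0 of the 77 genes were called. Over 39 genes named by rule and 14 settings, 511 of 546 log2 fold changes kept their direction, and 35 did not. All but 1 of the 35 arose with 1 mouse left out, over which the log2 fold changes ranged as follows: Mrpl11 (-0.13 to 0.056), Mrpl12 (-0.137 to 0.001), Mrpl14 (-0.009 to 0.201), Mrpl18 (-0.016 to 0.206), Mrpl22 (-0.024 to 0.13), Mrpl23 (-0.084 to 0.096), Mrpl24 (-0.177 to 0.007), Mrpl30 (-0.006 to 0.094), Mrpl33 (-0.126 to 0.063), Mrpl38 (-0.058 to 0.16), Mrpl45 (-0.036 to 0.205), Mrpl46 (-0.139 to 0.058), Mrpl47 (-0.095 to 0.03), Mrps17 (-0.04 to 0.145), Mrps18a (-0.166 to 0.085), Mrps18b (-0.086 to 0.034), Mrps21 (-0.139 to 0.022), Mrps23 (-0.021 to 0.159), Mrps25 (-0.044 to 0.158), Mrps30 (-0.191 to 0.012), Mrps35 (-0.072 to 0.022) and Mrps36 (-0.011 to 0.067). The other was Mrpl23, at 0.003 without a filter on low counts. The cause was not tested.

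Over all genes tested, edgeR called 1 gene higher and 1 lower. The counts were 33 and 9 in DESeq2, 8 and 3 in edgeR with no expression filter, and 2 and 1 in limma voom. Fits that left out 1 mouse gave 1 to 2 higher (2 only without WT replicate 1) and 0 to 1 lower. The Kdm1a log2 fold change ranged from -1.303 to -1.168 with 1 mouse left out, and lost its call without WT replicate 2 or without any one LSD1-mKO mouse, fits that have fewer samples.

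The large minus small difference of the medians was -0.026, ranged from -0.056 without LSD1-mKO replicate 2 to 0.005 without LSD1-mKO replicate 1, and was -0.039 with subunits by structure. The difference between genotypes in the large to small ratio was 0.009, and -0.038 without the highest gene of each subunit. With the median transcript length, chosen after seeing the data, the ratio was 1.98 in both genotypes.

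With the replicate number as a replicate block, 0 genes were called lower. Kdm1a stayed at -1.23 with an adjusted p of 0.299 (edgeR), and 0 of the 77 genes were called. Deviations of same-numbered mice correlated at -0.352, -0.107 and -0.15, which gives no sign that the replicate number marks a pair.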
